A study of Mus musculus with 10 samples.

Results

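The 9 genes described here make reactive oxygen species or nitric oxide in the mouse colon, or encode proteins that those enzymes need. They are Duox2, Duoxa2, Nox1, Noxo1, Noxa1, Nos2, Cybb, Cyba and Ncf1, chosen by symbol from the 24525 genes of the deposited expression table, and all 9 were found. The libraries came from male C57BL/6 mice (written C57BL/6N in the growth protocol) of the azoxymethane (AOM) and dextran sulfate sodium (DSS) model, in which a mutagen is followed by repeated injury of the colonic epithelium. AOM was injected once at 12.5 mg/kg into mice aged 7 weeks, and 1 week later 3 cycles of 3 weeks began, each with 5 days of 2% DSS in the water and 16 days of plain water. Tissue was labelled as taken 10 weeks after AOM. There were 5 libraries of tumour and 5 of adjacent tissue, and both groups carry the whole AOM and DSS treatment, so the adjacent tissue is not untreated colon. The 3 untreated mice that the labels mention have no library here. Every library carries the source label of Mouse #1, although the series text speaks of matched tissue, so it is not known which of them share an animal and the p-values measure the spread between these libraries.

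NADPH oxidases move electrons from NADPH across a membrane to oxygen and so make superoxide or hydrogen peroxide. In the colon, the epithelium uses NOX1, with its organizer NOXO1 and its activator NOXA1, and DUOX2, which must be matured by DUOXA2 to reach the cell surface and release hydrogen peroxide towards the lumen. Phagocytes use NOX2, the product of Cybb, which is assembled with the membrane partner encoded by Cyba and the cytosolic organizer encoded by Ncf1, and the product of Cyba is also the partner of NOX1. Nos2 encodes the inducible nitric oxide synthase, which makes nitric oxide from arginine in stimulated epithelial cells and macrophages.

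The genes that passed the test did not all move in the same direction. Cybb, Ncf1 and Cyba, whose products form part of the phagocyte oxidase, rose in tumours by 2.58-fold, 2.66-fold and 2.26-fold. Of these, Cyba also serves NOX1, so its rise cannot be assigned to phagocytes. The dual oxidase pair fell, Duox2 by 3.08-fold and Duoxa2 by 2.48-fold, and the partners of NOX1 fell, Noxo1 by 1.68-fold and Noxa1 by 1.48-fold. The oxidase subunit Nox1 itself and Nos2 did not pass the test. Folds are on the scale of log2(FPKM + 1), where FPKM is the fragment number scaled to transcript length and library total. Changes of low genes are understated on it.

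The test was limma, fitted over the 13016 genes whose mean reached 1 FPKM, with p-values adjusted after Benjamini and Hochberg and called under 0.05. All 9 genes passed this filter. By it 3 of the 9 rose, 4 fell and 2 did not pass, where 76.5% of all genes tested passed, 57.2% as higher and 19.3% as lower in tumours. The median change of the 9 was -0.20 on the log2 scale and that of all genes tested was 0.35. With the median of each library subtracted, 34.5% of all genes were called higher and 33.3% lower, the median of the 9 was -0.53, and again 3 of the 9 rose and 4 fell. For 5 of the 9 (Noxo1, Noxa1, Cybb, Ncf1 and Cyba) the 2 groups of FPKM values did not overlap, which held for 60.9% of all genes tested.

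In each library the FPKM summed to between 462009 and 484712, and 11981 to 13171 genes reached 1 FPKM. The table states no read depth, so no counting interval is given. The tissue carried colonic markers in both groups, at different levels. Of 10 markers of absorptive colonocytes 9 fell, with a summed level of 4143 to 5611 FPKM in adjacent tissue and 540 to 1929 FPKM in tumours, and of 9 general epithelial markers 8 fell and 1 (Krt18) rose, the latter not with library medians subtracted (limma adjusted p = 0.843), with sums of 7911 to 9585 against 4458 to 6801 FPKM. Of 11 markers of macrophages and monocytes 10 rose and none fell, with sums of 145 to 369 against 716 to 1175 FPKM. Of 10 neutrophil markers 9 rose and 1 (Ly6g) fell, with sums of 110 to 365 against 201 to 510 FPKM. Ly6g alone had a mean of 169 FPKM in adjacent tissue and 31.5 FPKM in tumours, so it makes up much of the adjacent neutrophil sums. No marker of these lists was at 0 in every library. In bulk tissue, fewer cells of a type and less RNA per cell cannot be told apart.

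**Figure D1:**
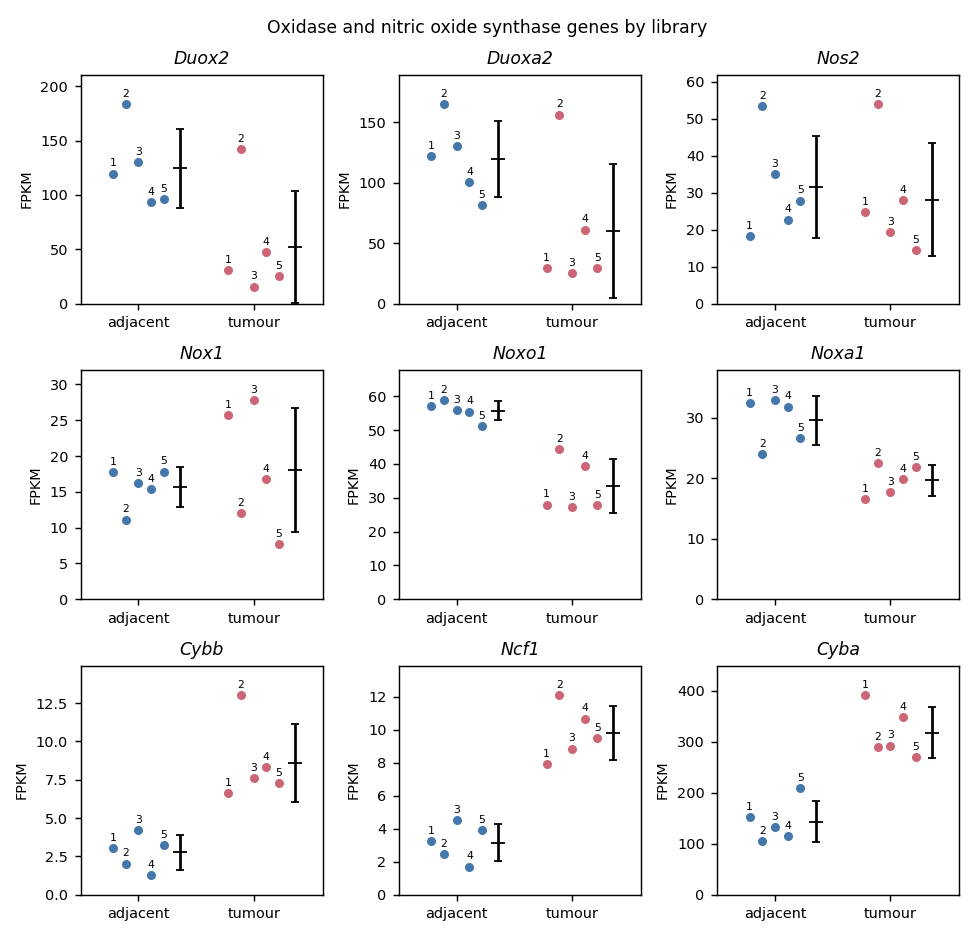
FPKM of the 9 genes in each library, with adjacent tissue in blue and tumours in red. Numbers are the library numbers, and the bars give the mean and SD of 5 libraries. Cybb, Ncf1 and Cyba have no tumour library as low as any adjacent one, Noxo1 and Noxa1 have no tumour library as high, and tumour 2 stands among the adjacent libraries for Duox2 and Duoxa2.

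DUOX2 and its maturation factor are encoded by neighbouring genes on opposite strands of chromosome 2 (GENCODE M21, GRCm38): Duox2 spans 122279247 to 122298449 on the minus strand and Duoxa2 spans 122298900 to 122302885 on the plus strand. In the RefSeq promoter table (GRCm38.p6), which held an entry for 8 of the 9 genes, their start sites lie 673 bases apart, so the genes are read away from a shared stretch. The 250 bases before each start site are shown because the pair fell together, written 5′ to 3′ on the strand of the gene, with capitals for each match to the searched motifs on either strand. They lie at chr2:122298228-122298477 on the minus strand for Duox2 and chr2:122298650-122298899 on the plus strand for Duoxa2. The RefSeq start site of Duox2, at 122298227, lies within its GENCODE span. The bases printed for Duox2 are therefore inside the GENCODE gene up to 122298449, and may not precede every start site.
Duox2 promoter: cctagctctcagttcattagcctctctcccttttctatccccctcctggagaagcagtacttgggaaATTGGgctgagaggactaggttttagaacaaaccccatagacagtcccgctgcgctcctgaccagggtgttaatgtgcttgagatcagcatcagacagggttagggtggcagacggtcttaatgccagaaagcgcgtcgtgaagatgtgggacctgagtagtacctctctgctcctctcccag
Duoxa2 promoter: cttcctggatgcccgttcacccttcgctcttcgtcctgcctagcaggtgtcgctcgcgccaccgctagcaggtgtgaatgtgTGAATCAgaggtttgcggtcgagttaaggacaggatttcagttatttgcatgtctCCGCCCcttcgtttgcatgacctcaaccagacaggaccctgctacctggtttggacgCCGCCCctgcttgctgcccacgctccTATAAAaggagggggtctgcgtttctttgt
The motifs searched on both strands over these bases and the first 50 after the start were GAS (TTCNNNGAA), ISRE (GAAANNGAAA), AP-1 (TGANTCA), the GATA core (GATAA), the CDX core (TTTAT), the PU.1 core (GAGGAA), the TATA box (TATAAA), the CCAAT box (these letters), the GC box (GGGCGG) and the NF-kappaB motif. The capitals in Duox2 are a CCAAT box on the opposite strand, a motif held by 37.4% of the 32817 promoter windows of the same length in the table. Those in Duoxa2 are an AP-1 match (held by 7.81% of windows), 2 GC boxes on the opposite strand (35.6%) and a TATA box that overlaps a CDX core (13.6% and 40.0%). A match describes these letters only.

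Duox2 stood at 120, 183, 130, 93.6 and 96.5 FPKM in adjacent libraries 1 to 5 and at 30.7, 142, 15.6, 47.5 and 25.7 FPKM in tumours 1 to 5. Tumour 2 was as high as adjacent tissue, and the other 4 tumours lay below the lowest adjacent library, so the groups overlapped through 1 library. The means were 125 ± 36.2 and 52.4 ± 51.6 FPKM (SD, n = 5 each). Duox2 fell by 1.62 on the log2 scale (SE 0.49, limma adjusted p = 0.0115), and the change without tumour 2 was -2.08 (limma adjusted p = 0.00018). Over the 10 fits that each left out 1 library it ranged from -2.08 to -1.31, with an adjusted p of at most 0.0299.

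Duoxa2, like Duox2, was highest in tumour 2 and lowest in tumour 3 among the tumours. It stood at 122, 165, 130, 100.5 and 81.7 FPKM in adjacent libraries 1 to 5 and at 29.5, 156, 25.2, 61.3 and 29.6 FPKM in tumours 1 to 5, so tumour 2 again lay among the adjacent values and tumour 4 was next. The means were 120 ± 31.5 and 60.4 ± 55.6 FPKM (SD, n = 5 each). Duoxa2 fell by 1.31 on the log2 scale (SE 0.45, limma adjusted p = 0.0224). This call is not secure: it was lost without adjacent library 2 (limma adjusted p = 0.0531), tumour 1 (0.0535), tumour 3 (0.0554) or tumour 5 (0.0547), within a range of 0.000314 to 0.0554 over the 10 fits that left out 1 library. Part of the Duoxa2 exons, 682 of 1592 bases in GENCODE, lies opposite exons of Duoxa1, which stood at no more than 0.41 FPKM in any library.

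The change of the maturation factor was not told apart from that of the oxidase. The log2 ratio of Duoxa2 to Duox2 was 0.03, -0.15, 0.00, 0.10 and -0.24 in adjacent libraries 1 to 5 and -0.06, 0.13, 0.66, 0.36 and 0.20 in tumours 1 to 5, and its mean was 0.31 higher in tumours. An exact two-sided permutation test over the 10 libraries gave p = 0.0476, which did not pass after adjustment over the 9 ratios computed (adjusted p = 0.107). The related pair Duox1 and Duoxa1, better known from other epithelia, was near the floor of the table, at 0.13 ± 0.037 against 0.052 ± 0.018 FPKM for Duox1 and 0.35 ± 0.066 against 0.31 ± 0.027 FPKM for Duoxa1 (SD, n = 5 each), below the filter.

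The tumours with the most Duox2 were also those with the most colonocyte marker RNA. The mean log2(FPKM + 1) of the absorptive colonocyte list was 5.75 in tumour 2 and 5.58 in tumour 4, between 3.8 and 3.87 in the other tumours, and between 7.94 and 8.69 in adjacent tissue. Whether this has a part in the fall of Duox2 was not tested. As a description with no test, chosen after the values were seen, the level of Duox2 minus the mean of the general epithelial list ran from -2.94 to -2.0 in adjacent tissue and from -4.56 to -1.96 in tumours, a mean difference of -1.02 where Duox2 alone had -1.62. The same difference for Duoxa2 was -0.71.

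NOX1 is the oxidase subunit that gives the colonic epithelium its superoxide. Nox1 (chromosome X, 134086421 to 134221956, minus strand) stood at 17.8, 11.1, 16.3, 15.4 and 17.8 FPKM in adjacent libraries 1 to 5 and at 25.7, 12.0, 27.8, 16.8 and 7.66 FPKM in tumours 1 to 5. Tumours 1 and 3 were above every adjacent library, tumour 5 was below every one, and the other 2 lay between, so the tumours spread on both sides of the adjacent values. The means were 15.7 ± 2.75 and 18.0 ± 8.67 FPKM (SD, n = 5 each), and the difference of 0.07 on the log2 scale (SE 0.31) did not pass in limma (adjusted p = 0.843). Its sign was not stable: it was -0.26 with library medians subtracted (limma adjusted p = 0.455), -0.04 without adjacent library 2, -0.09 without tumour 1 and -0.11 without tumour 3. Some 399 of its 3307 exonic bases lie opposite exons of Cstf2, a gene that rose by 0.65 on the log2 scale. Strand use in the authors' counting is not given in the sources available. Whether reads of facing genes entered the values of Nox1, Duoxa2, Noxo1, Noxa1 or Ncf1 was not tested.

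The organizer of NOX1 gave a clean separation. Noxo1 (chromosome 17, 24696234 to 24700529, plus strand) stood at 57.2, 58.9, 55.9, 55.4 and 51.2 FPKM in adjacent libraries 1 to 5 and at 27.9, 44.5, 27.3, 39.3 and 27.9 FPKM in tumours 1 to 5. No tumour reached the lowest adjacent library, the adjacent values were tight, and tumours 2 and 4, which kept the most Duox2, also kept the most Noxo1. Noxo1 fell by 0.75 on the log2 scale (SE 0.14, limma adjusted p = 0.000496), from a mean of 55.7 ± 2.86 to 33.4 ± 7.99 FPKM (SD, n = 5 each). In GENCODE 2122 of its 3013 exonic bases lie opposite exons of Tbl3, whereas the RefSeq spans of the 2 genes share 0 bases. Tbl3 rose, from 10.8 ± 1.39 to 24.9 ± 4.62 FPKM (SD, n = 5 each), the opposite direction.

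The activator of NOX1 fell by less. Noxa1 (chromosome 2, 25085667 to 25095149, minus strand) stood at 32.4, 23.9, 32.9, 31.8 and 26.6 FPKM in adjacent libraries 1 to 5 and at 16.6, 22.5, 17.7, 19.8 and 21.8 FPKM in tumours 1 to 5. The groups did not overlap, but adjacent library 2 and tumour 2 lay within 2 FPKM of each other, and among the tumours the order of Noxa1 was not that of Noxo1. Noxa1 fell by 0.56 on the log2 scale (SE 0.11, limma adjusted p = 0.000979), from a mean of 29.5 ± 4.02 to 19.7 ± 2.54 FPKM (SD, n = 5 each). Entpd8, whose exons face 50 of the 1617 exonic bases of Noxa1, fell by 2.25 on the log2 scale.

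The partners of NOX1 were also set against the general epithelial list. The level of Noxo1 minus the mean of that list ran from -3.69 to -3.48 in adjacent tissue and from -3.94 to -3.59 in tumours, a mean difference of -0.15, and for Noxa1 the mean difference was 0.03. For Nox1 it was 0.67, with -5.92 to -5.13 in adjacent tissue and -5.55 to -3.76 in tumours. These differences carry no test.

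The balance of NOX1 and its partners varied mostly among tumours. The log2 ratio of Noxo1 to Nox1 was 1.63, 2.30, 1.72, 1.79 and 1.47 in adjacent libraries 1 to 5 and 0.12, 1.81, -0.03, 1.18 and 1.74 in tumours 1 to 5: in tumours 1 and 3 the organizer was at about the level of the oxidase, and in tumours 2 and 5 the ratio was within the adjacent range. The mean difference of -0.82 did not pass the exact permutation test (p = 0.111, adjusted p = 0.167), nor did that of Noxa1 to Nox1, -0.63 (p = 0.198, adjusted p = 0.255). Cyba against Nox1 did pass, at 1.10 higher in tumours (exact permutation p = 0.0159, adjusted p = 0.0476), with 3.03, 3.14, 2.96, 2.84 and 3.48 in adjacent libraries 1 to 5 and 3.87, 4.48, 3.35, 4.30 and 4.96 in tumours 1 to 5. Tumour 3 lay below adjacent library 5, so the groups overlapped. This call was lost (exact permutation adjusted p = 0.0714) when any of adjacent libraries 1 to 4 was left out. With each library left out in turn, the difference was 0.91 to 1.31.

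**Figure D2:**
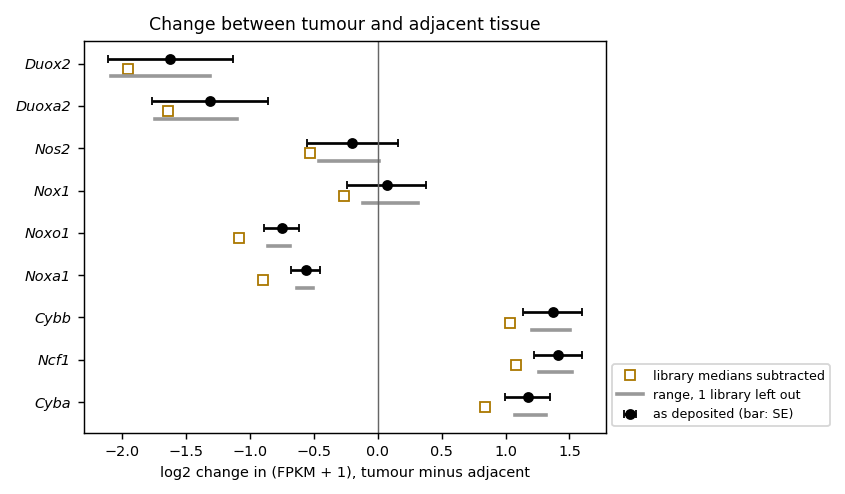
Change of the 9 genes between tumour and adjacent tissue on the log2(FPKM + 1) scale. Points are the limma estimates with their SE, open squares the estimates with library medians subtracted, and grey lines the range when each of the 10 libraries was left out. Duox2 and Duoxa2 lie farthest to the left with the widest errors, Nox1 and Nos2 straddle 0, and Cybb, Ncf1 and Cyba lie to the right of 0 in each of these settings.

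NOX2 is the oxidase of neutrophils and macrophages, and the promoters of its gene and of its cytosolic organizer are shown because these genes rose together. Cybb spans 9435252 to 9487771 on the minus strand of chromosome X and Ncf1 spans 134220053 to 134229625 on the minus strand of chromosome 5 (GENCODE M21, GRCm38). The 250 bases before the RefSeq start sites, at chrX:9469325-9469574 and chr5:134229626-134229875 (GRCm38.p6, both on the minus strand), are written 5′ to 3′ on the strand of the gene, with capitals for the motif matches as above. All the bases printed for Cybb lie within its GENCODE span, so they may not precede every start site.
Cybb promoter: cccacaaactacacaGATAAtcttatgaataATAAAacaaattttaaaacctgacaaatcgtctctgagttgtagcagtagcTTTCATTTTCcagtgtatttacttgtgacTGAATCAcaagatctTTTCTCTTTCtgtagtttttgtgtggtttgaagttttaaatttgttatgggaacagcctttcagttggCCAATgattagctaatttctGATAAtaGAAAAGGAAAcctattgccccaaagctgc
Ncf1 promoter: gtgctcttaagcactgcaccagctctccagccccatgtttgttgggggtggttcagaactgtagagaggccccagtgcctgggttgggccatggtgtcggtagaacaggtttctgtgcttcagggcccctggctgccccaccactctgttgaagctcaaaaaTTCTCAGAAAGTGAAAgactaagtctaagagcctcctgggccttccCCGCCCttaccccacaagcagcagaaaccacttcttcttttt
The Cybb window held 3 matches to the ISRE, the element bound by interferon regulatory factors, where 3.43% of windows hold any. It also held an AP-1 match, a CCAAT box, 2 GATA cores and a CDX core in the printed bases, and a PU.1 core after the start site. The Ncf1 window held 1 ISRE match that overlaps a GAS match (8.29% of windows) 88 bases before the start, and a GC box. Of the other 6 genes with an entry, none held an ISRE match. The Cybb window was poor in G and C (35.3%, against a median of 52.7% over all windows) and that of Noxo1 was rich in them (80.3%).

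Cybb was the least abundant of the 9 genes. It stood at 3.02, 2.03, 4.20, 1.30 and 3.25 FPKM in adjacent libraries 1 to 5 and at 6.64, 13.0, 7.61, 8.34 and 7.29 FPKM in tumours 1 to 5. Every tumour lay above every adjacent library, and tumour 2 lay well above the other tumours. Cybb rose by 1.37 on the log2 scale (SE 0.23, limma adjusted p = 0.000313), from a mean of 2.76 ± 1.12 to 8.57 ± 2.54 FPKM (SD, n = 5 each).

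Ncf1 followed Cybb from library to library. It stood at 3.23, 2.45, 4.51, 1.70 and 3.92 FPKM in adjacent libraries 1 to 5 and at 7.92, 12.1, 8.86, 10.7 and 9.51 FPKM in tumours 1 to 5, again with adjacent library 4 lowest and tumour 2 highest. Ncf1 rose by 1.41 on the log2 scale (SE 0.19, limma adjusted p = 7.79e-05), from a mean of 3.16 ± 1.12 to 9.81 ± 1.62 FPKM (SD, n = 5 each). Relative to Cybb, the log2 ratio of Ncf1 lay between 0.07 and 0.23 in adjacent tissue and between -0.10 and 0.34 in tumours, a difference of 0.04 that did not pass the exact permutation test (p = 0.722, adjusted p = 0.722). Exons of Gtf2ird2, which rose by 0.72 on the log2 scale, face 408 of the 3663 exonic bases of Ncf1.

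Cyba, which serves both NOX1 and NOX2, was the most abundant of the 9 genes in both groups. Cyba (chromosome 8, 122424776 to 122432930, minus strand) stood at 153, 106, 133, 116 and 209 FPKM in adjacent libraries 1 to 5 and at 391, 290, 292, 348 and 269 FPKM in tumours 1 to 5. All tumours were above the highest adjacent library, and the order of the tumours was not that of Cybb, with tumour 1 highest. Cyba rose by 1.17 on the log2 scale (SE 0.18, limma adjusted p = 0.000158), from a mean of 143 ± 40.7 to 318 ± 50.1 FPKM (SD, n = 5 each). Relative to Cybb, the log2 ratio of Cyba, with 4.69 to 5.66 in adjacent tissue and 4.38 to 5.68 in tumours, differed by -0.20, which did not pass the exact permutation test (p = 0.468, adjusted p = 0.527) and turned to 0.35 with a pseudocount of 5.

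Most markers of phagocytes rose in tumours, as these 3 genes did. The level of Cybb minus the mean of the macrophage and monocyte list ran from -1.77 to -1.48 in adjacent tissue and from -1.75 to -1.55 in tumours, a mean difference of -0.07. For Ncf1 that mean difference was -0.03 and for Cyba -0.26. Cyba followed the list less closely, with 3.21 to 4.08 in adjacent tissue and 2.83 to 3.95 in tumours. These values hold for the macrophage and monocyte list only. No such difference was computed for the neutrophil list, whose mean log2(FPKM + 1) was 1.65 to 3.48 in adjacent tissue and 3.40 to 4.37 in tumours. Set against Ptprc, the leukocyte surface phosphatase CD45, Cybb was higher in tumours by 0.57 and Ncf1 by 0.61, but this depends on the marker. Of the 3 pan-leukocyte genes Ptprc had the smallest change (0.80 on the log2 scale), while Coro1a had 1.10 and Laptm5 1.37, beside 1.37 for Cybb and 1.41 for Ncf1. With library medians subtracted the change of Ptprc was 0.46 and did not pass (limma adjusted p = 0.107). The differences from the list and from Ptprc carry no test and were chosen after the values were seen.

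**Figure D3:**
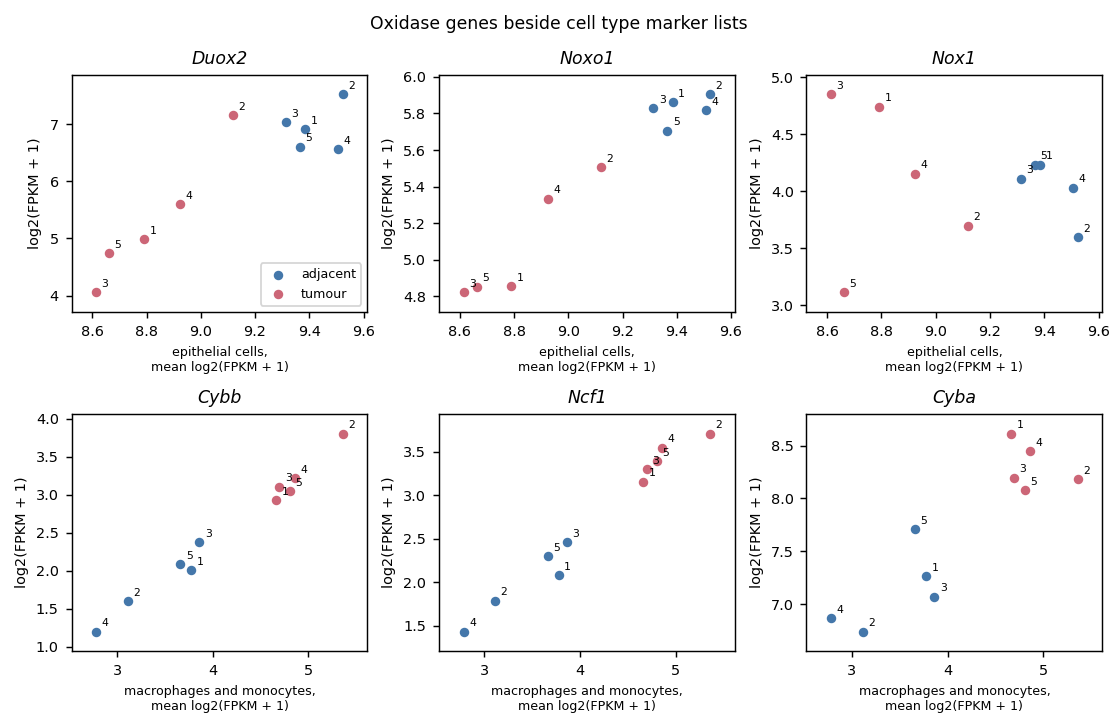
Level of 6 genes in each library against the mean level of a marker list, both as log2(FPKM + 1). The top row sets Duox2, Noxo1 and Nox1 against 9 general epithelial markers, and the bottom row sets Cybb, Ncf1 and Cyba against 11 markers of macrophages and monocytes. Cybb and Ncf1 lie close to a line through both groups, with tumour 2 highest on both axes, whereas Nox1 shows no such line. Points of a plot share their library, and no test was made.

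Nos2 showed no called change. Nos2 (chromosome 11, 78920787 to 78960254, plus strand), the inducible nitric oxide synthase, stood at 18.2, 53.5, 35.0, 22.7 and 27.9 FPKM in adjacent libraries 1 to 5 and at 24.9, 53.9, 19.4, 28.1 and 14.5 FPKM in tumours 1 to 5. The highest value of each group was in library 2 and the groups covered nearly the same range. The means were 31.5 ± 13.8 and 28.1 ± 15.3 FPKM (SD, n = 5 each), and the difference of -0.20 on the log2 scale (SE 0.36) did not pass in limma (adjusted p = 0.621). It was -0.53 with library medians subtracted (limma adjusted p = 0.236) and 0.01 without adjacent library 2.

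The ratios of Nos2 to Duox2, which fell, and to Cybb, which rose, differed between the groups. Most of each difference is the change of the other gene: -1.62 for Duox2 and 1.37 for Cybb, beside -0.20 for Nos2. These ratios are therefore no separate evidence of a change in Nos2. The log2 ratio of Nos2 to Duox2 was -2.65, -1.76, -1.86, -2.0 and -1.76 in adjacent libraries 1 to 5 and -0.29, -1.38, 0.29, -0.74 and -0.79 in tumours 1 to 5, with no overlap and 1.42 higher in tumours (exact permutation p = 0.0079, adjusted p = 0.0357). Nos2 to Cybb had log2 ratios of 2.26, 4.17, 2.79, 3.37 and 2.76 in adjacent libraries 1 to 5 and 1.76, 1.97, 1.24, 1.64 and 0.90 in tumours 1 to 5, with no overlap and 1.57 lower on average, a difference of -1.57 (exact permutation p = 0.0079, adjusted p = 0.0357). A raw p of 0.0079 is the smallest that permutations of 5 against 5 libraries can give. Both calls were lost (exact permutation adjusted p = 0.0714) when any of adjacent libraries 1 to 4 was left out, though the groups still did not overlap. With each library left out in turn, the difference was 1.20 to 1.62 for Nos2 to Duox2 and -1.77 to -1.29 for Nos2 to Cybb. Nox1 to Duox2, with a log2 ratio 1.69 higher in tumours, did not pass (exact permutation p = 0.0635, adjusted p = 0.114).

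**Figure D4:**
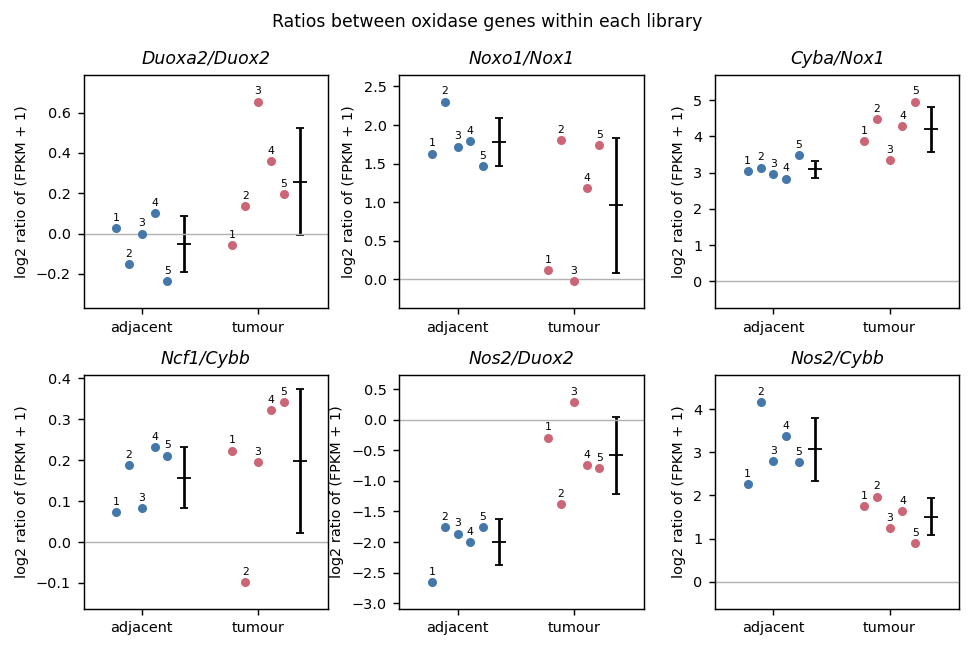
Log2 ratio of (FPKM + 1) between gene pairs within each library, with adjacent tissue in blue and tumours in red, library numbers above the points, and bars for the mean and SD of 5 libraries. The groups do not overlap for Nos2 to Duox2 and Nos2 to Cybb, they share a range for Ncf1 to Cybb, and tumours 1 and 3 stand low for Noxo1 to Nox1.

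The order of the 9 genes by level hardly differed between the groups. FPKM is per length, so levels can be set side by side: in adjacent tissue the order of the mean FPKM from the top was Cyba, Duox2, Duoxa2, Noxo1, Nos2, Noxa1, Nox1, Ncf1 and Cybb, and in tumours only Duox2 and Duoxa2 changed places. Neighbours whose values overlapped in adjacent tissue were Cyba with Duox2, Duox2 with Duoxa2, Noxo1 with Nos2, Nos2 with Noxa1, and Ncf1 with Cybb. In tumours each gene overlapped the next in order, except Cyba, which stood clear above Duoxa2. By mean FPKM over the 10 libraries, Cyba was above 97.8% of the genes tested, Duoxa2 93.4%, Duox2 93.3%, Noxo1 84.8%, Nos2 77.0%, Noxa1 72.0%, Nox1 60.4%, Ncf1 31.8% and Cybb 28.2%.

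Among the other genes of the NADPH oxidases, 12 were in the table and 8 passed the filter, of which 3 rose (Rac3, Ncf4 and Rac2), 1 fell (Prkcd) and 4 did not pass, with a median change of 0.32 beside 0.35 for all genes tested. With library medians subtracted 2 rose (Rac3 and Ncf4) and 2 fell (Prkcd and Rac1), and Rac2 no longer passed, at 0.46 (limma adjusted p = 0.0823). Over all genes tested 57.2% rose and 19.3% fell, and 34.5% and 33.3% did so with library medians subtracted. Ncf4, a regulatory subunit of the phagocyte oxidase, rose from 2.59 ± 1.0 to 6.77 ± 1.44 FPKM, by 1.14 on the log2 scale, and Rac2, the small GTPase that activates NOX2 in blood cells, rose from 4.52 ± 1.6 to 8.52 ± 2.74 FPKM, by 0.79 (limma adjusted p = 0.00646; SD, n = 5 each). Rac3, a close relative of the GTPase Rac1, rose from 9.47 ± 1.96 to 29.7 ± 11 FPKM, by 1.5, and Prkcd, a protein kinase C that phosphorylates oxidase subunits, fell from 112 ± 8.86 to 51.0 ± 7.36 FPKM, a change of -1.12. Nox4, an oxidase better known from stromal cells and kidney, was below the filter but higher in every tumour (0.38 to 0.72 FPKM) than in any adjacent library (0.01 to 0.09 FPKM), and Nox3 reached no more than 0.02 FPKM.

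Of the genes of nitric oxide production and handling, 19 were in the table and 17 were tested, of which 8 rose, 2 fell and 7 did not pass, with a median change of 0.45. With library medians subtracted the counts were 5 and 6, so the balance of directions depends on the scaling. The shares over all genes tested were 57.2% higher and 19.3% lower, or 34.5% and 33.3% with library medians subtracted. The largest rises were of Ddah2 (7.26 ± 3.17 to 36.2 ± 13.6 FPKM, 2.18 on the log2 scale), which degrades methylated arginines that inhibit nitric oxide synthases, and Arg1 (5.70 ± 4.03 to 24.7 ± 10.2 FPKM, 2.09), the arginase that uses the same substrate as Nos2. The falls were of Ddah1 (22.5 ± 4.02 to 9.37 ± 8.64 FPKM, -1.47), which shares the reaction of Ddah2, and Nostrin (39.0 ± 7.10 to 24.6 ± 5.27 FPKM, -0.65), known for moving the endothelial synthase away from the cell surface. The endothelial synthase Nos3 rose from 0.67 ± 0.19 to 2.23 ± 0.35 FPKM, by 0.95 (limma adjusted p = 5.33e-05). Of 5 endothelial markers 5 rose too, or 4 with library medians subtracted, with sums of 11.8 to 25.7 against 48.8 to 73.8 FPKM. The part of endothelial cells in the rise of Nos3 was not tested. The neuronal synthase Nos1 reached no more than 0.26 FPKM. Each ± is an SD with n = 5.

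Of the peroxidases and enzymes that remove superoxide or hydrogen peroxide, 18 of 20 were tested: 11 rose, 3 fell and 4 did not pass, with a median change of 0.43, and 8 rose and 7 fell with library medians subtracted. These counts lie near the shares over all genes tested, 57.2% higher and 19.3% lower, or 34.5% and 33.3% with library medians subtracted. The extracellular superoxide dismutase Sod3 rose from 9.35 ± 3.59 to 56.7 ± 9.10 FPKM, by 2.54 on the log2 scale, and the matrix peroxidase Pxdn from 3.64 ± 2.16 to 26.1 ± 8.89 FPKM, by 2.59. Both are made by cells of the stroma, and 6 of 6 fibroblast markers rose too, with sums of 74.4 to 191 against 571 to 964 FPKM, whose part in it was not tested. The peroxiredoxin Prdx6 fell from 970 ± 271 to 167 ± 111 FPKM, a change of -2.75, and the secreted lactoperoxidase Lpo, which uses the kind of hydrogen peroxide that DUOX2 releases, from 14.2 ± 3.25 to 5.13 ± 2.24 FPKM, a change of -1.36. Each ± is an SD with n = 5.

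Of the cytokines and transcription factors known to induce Nos2, Duox2 or Nox1, 14 of 19 were tested: 9 rose, 2 fell and 3 did not pass, with a median change of 0.49, and with library medians subtracted 4 rose. Among all genes tested 57.2% rose and 19.3% fell, and 34.5% rose with library medians subtracted. Of the tested genes the interleukins Il1b (6.79 ± 4.77 to 44.3 ± 20.3 FPKM, 2.59 on the log2 scale) and Il1a (0.98 ± 0.73 to 5.80 ± 3.07 FPKM, 1.71) rose the most. Below the filter, Il6 stood at no more than 0.14 FPKM in adjacent tissue and at 0.46 to 3.23 FPKM in tumours. Il17a had 0.11 to 0.47 against 0.52 to 1.97 FPKM, while the groups overlapped for Ifng, Il13 and Il22. The factors that fell were Irf1 (101 ± 22.4 to 62.8 ± 21.0 FPKM, -0.71), a transcription factor of the interferon response, and Nfkbiz (32.3 ± 3.47 to 25.5 ± 3.17 FPKM, -0.33), a cofactor of NF-kappaB. Each ± is an SD with n = 5.

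**Figure D5:**
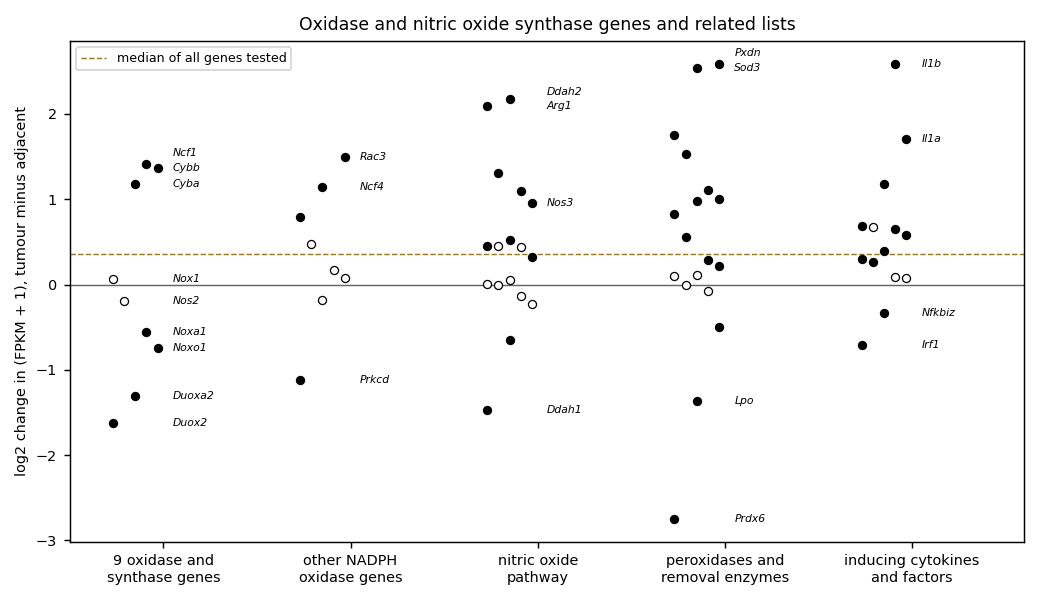
Change of each tested gene between tumour and adjacent tissue, as log2(FPKM + 1), for the 9 genes and for 4 lists of related genes. Filled points passed limma at an adjusted p under 0.05, open points did not, and the dashed line is the median of all genes tested. The 9 genes reach from Duox2 at -1.62 to Ncf1 at 1.41.

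The genes most like each enzyme across libraries were found from the Pearson correlation of log2(FPKM + 1) over the 10 libraries after the mean of each group was removed. This is a description across 10 points that share their libraries, with no test. Most like Duox2 were Plpp2 (r = 0.99), a lipid phosphatase, and Mapk13 (0.98), a stress-activated kinase, and Duoxa2 was the fourth of all genes (0.97). Mapk13, for example, stood at 128 FPKM in tumour 2 and between 71.8 and 98.3 in the other tumours. Of the other enzymes, Noxo1 had r = 0.90 and Nos2 0.81 with Duox2, whereas Nox1 had -0.43.

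Nos2 was most like Anxa8 (r = 0.94), an annexin, Mpp5 (0.94), a cell polarity scaffold, and Bcar3 (0.93), an adaptor protein, and Anxa8 was also highest in library 2 of both groups, at 149 and 116 FPKM. Most like Nox1 were Zc3h13 (r = 0.94), 2610306M01Rik (0.93) and Aars2 (0.92), the mitochondrial alanyl-tRNA synthetase. Zc3h13, at 13.7 and 13.0 FPKM in tumours 1 and 3 and 8.29 FPKM in tumour 5, had the same high and low tumours as Nox1. Most like Cybb were Nckap1l (r = 0.99), a cytoskeletal protein of blood cells, Laptm5 (0.98), a leukocyte lysosomal protein that is also in the pan-leukocyte list used here, and Plxnd1 (0.98), a semaphorin receptor, with Ncf1 at 0.95.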

How the data were processed

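Expression was measured by RNA sequencing of 5 tumour and 5 adjacent colon libraries. Per the labels' protocols, polyadenylated RNA was made into libraries with the TruSeq RNA v2 kit and sequenced on a HiSeq. The build mm10 and the tools GATK, DESeq2 1.14.1, edgeR 3.16.5, Salmon 0.8.2, RSEM 1.2.15, Cufflinks 2.2.1 and TopHat2 2.1.0 are listed in the submitters' processing notes, which do not say what made the table. The deposited table gives FPKM per gene symbol as the authors computed it, and 1 line that holds no values was left out. FPKM is not a count, so no count test was used, and since it is a share of the library, each value depends on the other genes.

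Groups were taken from the sample type label. On log2(FPKM + 1), limma 3.58.1 (R 4.3.3) was run with group only, intensity trend and robust variance, over genes whose mean reached 1 FPKM. Ratios used exact two-sided permutation tests (scipy 1.17.1) adjusted over the 9 ratios. Alternatives were pseudocounts of 0.1 and 5, no filter or a mean of at least 5 FPKM, subtracted library medians, quantile normalization, a fit without trend, a replicate block, exact permutation and leaving out each library. The fit was tested on simulated data. Between any 2 libraries at least 17741 genes differed. Named genes were the 9, up to 2 with the largest rise and 2 with the largest fall of each list, a set of near relatives, and the 3 most like Duox2, Nox1, Nos2 and Cybb. Rac2 and Nos3 belong to that set of near relatives. Genes opposite the exons of the 9, and Ptprc, were added after the values were seen. Of the genes the rule names, 2 are not reported here. The 9 genes, the lists and the tests were chosen with earlier results of these data known. Cybc1 was matched under its older symbol. Of the other marker lists, 7 of 7 goblet cell genes fell, 3 of 3 pan-leukocyte genes rose, 2 of 3 tested B cell genes fell, 5 T cell genes did not pass (unadjusted limma p from 0.0743 to 0.589), and no eosinophil gene passed the filter. With library medians subtracted, 2 of the 3 pan-leukocyte genes rose and 3 of the 3 tested B cell genes fell.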

Additional observations from a re-analysis of the deposited data

Results flagged for a closer look

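Of 82 groups of 5 libraries examined for a value that stands apart from the rest, 8 held one, and chance alone would mark about 1 in 20. Tumour 2 stood apart for 4 genes: Duox2 was at 142.3 FPKM (15.6 to 47.5 in the other tumours), Duoxa2 at 156.35 FPKM (25.2 to 61.3), Cybb at 12.99 FPKM (6.64 to 8.34) and Ddah1 at 24.39 FPKM (4.03 to 8.99). Adjacent library 5 stood apart for Ddah1, at 15.6 FPKM (23.3 to 26.0 in the others), and for Il1a, at 2.27 FPKM (0.49 to 0.81). Its mean for the neutrophil list was 3.48 on the log2 scale, where the other adjacent libraries had 1.65 to 2.27. The log2 ratio of Nos2 to Duox2 was -2.65 in adjacent library 1 and -2.0 to -1.76 in the others. Nox3 was at 0.02 FPKM in adjacent library 1 and listed at 0 in the other adjacent libraries.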

How the results depend on the processing

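Each of the calls on Duox2, Noxo1, Noxa1, Cybb, Ncf1 and Cyba held in every alternative run, and Duoxa2 lost its call in 4 of the 10 fits that left out 1 library (change -1.74 to -1.10, limma adjusted p 0.000314 to 0.0554) and in no other. For single genes the exact permutation test was judged by its unadjusted p, a weaker demand than the adjusted p of limma. That p was 0.0397 for Duox2 and 0.0476 for Duoxa2. Subtracting library medians gave 4486 genes that rose and 4329 that fell, and quantile normalization 4759 and 3934, where the reported fit had 7442 and 2509. Subtracted medians also gave 2 falls among the other NADPH oxidase genes, 5 rises and 6 falls in the nitric oxide pathway, 7 falls among the peroxidases and removal enzymes, and 4 rises among the inducers. The falls of other NADPH oxidase genes were 2 without the filter and with the replicate block, and 1 to 2 in the leave-one-out fits (2 without tumour 2). With a mean of at least 5 FPKM, which tests fewer genes, 5 nitric oxide genes rose. Nox1, with no call, reversed to -0.26 (medians subtracted) and -0.20 (quantile), and its leave-one-out range was -0.11 to 0.32 (-0.04 without adjacent library 2, -0.09 without tumour 1, -0.11 without tumour 3), while that of Nos2 was -0.46 to 0.012 (0.012 without adjacent library 2). Cyba to Cybb reversed to 0.35 with a pseudocount of 5. Leave-one-out ranges of the ratios were 0.91 to 1.31 for Cyba to Nox1, 1.2 to 1.62 for Nos2 to Duox2 and -1.77 to -1.29 for Nos2 to Cybb, each called in 6 of 10 fits, 0.21 to 0.39 for Duoxa2 to Duox2, called without tumour 1 (adjusted p = 0.0357 by the exact permutation test), and 1.19 to 2.26 for Nox1 to Duox2, called without tumour 2 (adjusted p = 0.0357). Where the cause of such a change is not given, it was not tested. Libraries of like number correlated at r = 0.022 to 0.42 in their deviations from the group means, over 0.1 in 3 of 5 pairs, and 4 of 10 libraries correlated best with their own number, so the numbers do not settle a pairing. With the replicate block 7534 genes rose and 2533 fell, and no call on the 9 genes differed. A sign-flip test over the pairs left the ratios Cyba to Nox1 (1.10), Nos2 to Duox2 (1.42) and Nos2 to Cybb (-1.57) without a call (adjusted p = 0.141), as 5 pairs cannot reach 0.05. FPKM without counts limits what can be said of the lowest genes.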
